A study of Mus musculus with 8 samples.

Results

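The RNA described here came from the 4 libraries whose titles call them resident eosinophils (replicates 3, 4, 5 and 6), 4 of the 8 libraries in a study of eosinophils sorted from a mouse model of asthma. All 4 were selected by title alone, and the other 4, from subsets sorted by Siglec-F and CD101, were not used. The labels name C57BL/6 mice and CEL-Seq, a method that tags the 3' end of each transcript and amplifies it linearly, read on a NextSeq 550 instrument. They give no treatment, tissue, sex, age, sort gate or animal for these libraries, and do not say whether the replicates came from separate mice. The spread given below is thus the spread between these libraries, which may be partly technical, and sex-linked genes set replicate 3 apart. The question was which genes made up the RNA of these libraries after the mitochondrial genes were set aside, and which genes held one level or different levels across the 4.

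Eosinophils are granulocytes that mature in bone marrow, store cationic proteins such as eosinophil peroxidase and major basic protein in their granules, and carry Siglec-F and the interleukin-5 and CCR3 receptors on their surface. Much of the messenger RNA for granule proteins is made in marrow precursors, and mature cells hold less of it. MHC class II molecules, which load peptides in endosomes and show them to CD4+ T cells, are typical of dendritic cells, macrophages and B cells. Ribosomal protein, actin and ferritin transcripts are abundant in most leukocytes.

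Total counts ranged from 5600610 (replicate 3) to 11583550 (replicate 4). Genes whose symbol begins with mt-, which lie on the mitochondrial genome, took 61.8%, 57.1%, 38.6% and 52.1% of the counts in replicates 3, 4, 5 and 6. This left 2137819 non-mitochondrial counts in replicate 3 and 4660989 to 5296468 in each of the other 3, and every level below is in CPM, the usual per-million scaling, of these counts. A count of 3, taken as the floor of a library, equals 0.566 to 1.40 CPM. Non-mitochondrial genes with at least 1 count numbered 12670 to 15968 per library, with 19766 in any library and 10283 in all 4. CPM values are shares of a fixed total, so a gene group that takes more of a library lowers the others in it. In such bulk samples, fewer cells of a type and less RNA per cell cannot be told apart.

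The label was first set against marker genes, and the eosinophil genes were scarce. The 12 eosinophil markers summed to 857, 1120, 563 and 789 CPM, and 11 of them had a count in some library but only 5 in all 4. Most of the sum came from Ear2 and Ear1, eosinophil-associated ribonucleases, at 590 ± 151 and 132 ± 63.3 CPM (SD, n = 4). Their near-identical sequences make the split between them uncertain, and which cells made them was not tested. Siglecf stood at 37.0, 112, 13.1 and 55.1 CPM. Prg2, which encodes major basic protein, had 44.4, 12.7, 16.3 and 22.8 CPM. Epx, the eosinophil peroxidase gene, was seen in replicate 5 alone at 5.36 CPM, and Prg3 had no count in any library. Il5ra had 0.468, 0, 0 and 10.8 CPM, and Ccr3 0, 7.24, 10.9 and 0 CPM. Epx, Prg3, Il5ra and Ccr3 were thus at 0 or below the floor in at least 2 of the 4 libraries each, and the libraries are called by their label here without a claim of purity. Cd101, a surface protein used to sort eosinophil subsets, had 93.1, 66.8, 12.9 and 95.2 CPM.

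Markers of other cell types were present beside them. Macrophage markers summed to 1563, 2448, 1373 and 2255 CPM with 10 of 10 genes in every library, and dendritic cell markers to 399 to 591 CPM with 8 of 8. Neutrophil markers summed to 415 to 1398 CPM, most of it the myeloid gene Retnlg in replicates 3, 4 and 6, while Ly6g had no count. B and plasma cell markers summed to 222 to 523 CPM with Igkc at 0, T and NK cell markers to 51.9 to 141 CPM with Ncr1 at 0, and mast cell and basophil markers to 58.9 to 222 CPM with Tpsb2 at 0. Platelet markers summed to 10.3 to 125 CPM. The structural and red cell lists were less even: airway and alveolar epithelium gave 16868, 2531, 41829 and 4200 CPM (9 of 9 genes in every library), fibroblast and smooth muscle 1713 to 9100 CPM, endothelium 500 to 2441 CPM, and erythroid genes 27408, 3752, 3023 and 6673 CPM. Replicate 5 was highest and replicate 4 lowest in the epithelial, fibroblast and endothelial sums, and replicate 3 was highest in the erythroid sum. The part of cells other than eosinophils in the levels below was not tested.

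**Figure D1:**
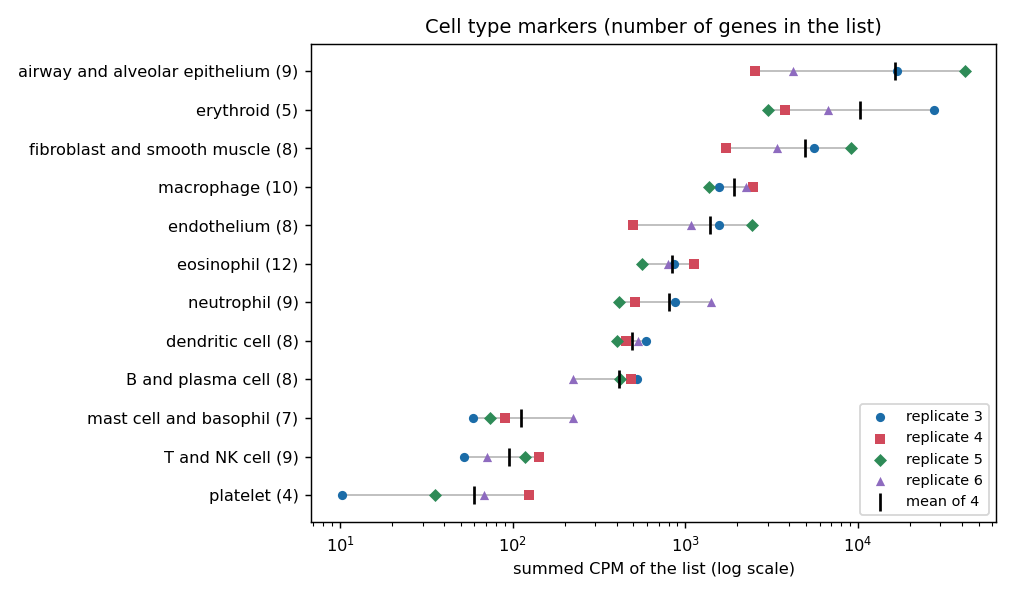
Summed CPM (x axis, log scale) of 12 lists of cell type markers in each of the 4 libraries labelled resident, 1 symbol per replicate and a bar at the mean, with the number of genes in each list in brackets. The epithelial list spans 2531 to 41829 CPM and the eosinophil list 563 to 1120 CPM.

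Replicate 3 also stood apart in sex-linked genes, which were looked at after their values were seen. Xist, the RNA that coats the inactive X chromosome of females, had 1988 counts in replicate 3 and 1, 0 and 0 counts in replicates 4, 5 and 6. The Y-linked Ddx3y had 0 counts in replicate 3 and 568, 1069 and 855 in the others. Uty had 0 against 116, 249 and 176, and Eif2s3y 0 against 42, 94 and 138. Replicate 3 thus had the pattern of female cells and the others that of male cells, so it did not share its mouse with them. The part of sex or animal in the spread was not tested.

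The non-mitochondrial RNA was spread over many genes with a steep top. The 10 genes with the highest mean held 13.89%, 17.09%, 10.02% and 13.38% of the counts in replicates 3, 4, 5 and 6 (13.6% ± 2.89, SD, n = 4). The first 25 held 18.97% ± 3.07, the first 100 32.7% ± 3.23 and the first 1000 63.4% ± 3.41. It took 367, 283, 504 and 383 genes to reach 50% of a library's counts, so replicate 5 was the most even and replicate 4 the most concentrated. Between 117 and 125 genes per library were at or above 1000 CPM, and 3118 to 3703 at or above 50 CPM. Of the 100 most abundant genes of each library, 67 were shared by all 4 and 138 appeared in any; for the top 10 of each, 6 were shared by all 4.

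The MHC class II antigen presentation genes led the list. H2-Aa, the alpha chain of the I-A molecule, had 25440, 38576, 13341 and 28329 CPM (26421 ± 10383, SD, n = 4). Cd74, which encodes the invariant chain that guards the peptide groove of new class II molecules, had 22522, 36864, 14130 and 27394 CPM. H2-Ab1, the I-A beta chain, had 16785, 24884, 11266 and 19461 CPM. H2-Eb1, the I-E beta chain, had 16733, 25454, 8313 and 21637 CPM. These were the 4 most abundant genes by mean CPM, all highest in replicate 4 and lowest in replicate 5, with a fold between those libraries of 2.89 for H2-Aa and 3.06 for H2-Eb1. Together they held 8.15%, 12.6%, 4.70% and 9.68% of the counts.

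The rest of the class II pathway was present at lower levels; these 6 genes fall outside the naming rule and were named after their values were seen. H2-DMa, a chain of the H2-DM editor that loads peptide onto class II, had 1314, 1909, 859 and 1547 CPM, and its partner H2-DMb1 had 344, 470, 287 and 537 CPM. H2-DMb2, another beta gene of that editor, had 160, 280, 82.8 and 185 CPM. H2-Oa and H2-Ob, the chains of the H2-O modulator of that editor, averaged 207 and 222 CPM. Ciita, the transcriptional co-activator of class II genes, had 245, 253, 124 and 280 CPM. All 10 class II genes of at least 50 mean CPM were lowest in replicate 5, against 29.8% of all genes at that level, and 8 of 10 were highest in replicate 4, against 22.5%. The order from replicate 4 through 6 and 3 down to 5 held for 7 of the 10, beside 6.17% of all 3422 genes. It was not particular to class II: it held for 5 of 14 complement and macrophage genes and 13 of 53 actin genes. Among lysosomal genes it held for 3 of 43. As a class they made up 8.4%, 12.9%, 4.86% and 9.98% of the counts (9.04% ± 3.36, SD, n = 4). As an alternative chosen after seeing the data, the epithelial, endothelial, fibroblast, haemoglobin and platelet genes were taken out of the total. The class then made up 8.98%, 13.1%, 5.30% and 10.2%, with the same order of libraries. The genes left in held 93.6%, 98.6%, 91.8% and 97.7% of the counts, so too little was taken out to change that order. Nothing is read from the unchanged order.

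The 150 bases before the start sites of class II genes are shown as a description, and their part in the order of the libraries was not tested. They were read from the RefSeq promoter table (GRCm38.p6), which matched 7 of the 10 class II genes and not Cd74, H2-Ab1 and Ciita. Class II promoters are known to carry a Y box, an inverted CCAAT element bound by NF-Y, downstream of an X box. Each sequence runs 5′ to 3′ on the gene's own strand, and capitals mark ATTGG or CCAAT.
H2-Aa, chr17:34287824-34287973, minus strand: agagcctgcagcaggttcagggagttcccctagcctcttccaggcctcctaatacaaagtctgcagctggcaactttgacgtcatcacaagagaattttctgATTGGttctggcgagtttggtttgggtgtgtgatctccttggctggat
H2-Eb1, chr17:34305717-34305866, plus strand: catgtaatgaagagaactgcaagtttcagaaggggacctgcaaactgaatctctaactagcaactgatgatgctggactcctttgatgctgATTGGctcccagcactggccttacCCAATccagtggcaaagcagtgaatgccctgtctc
H2-DMb1, chr17:34153041-34153190, plus strand: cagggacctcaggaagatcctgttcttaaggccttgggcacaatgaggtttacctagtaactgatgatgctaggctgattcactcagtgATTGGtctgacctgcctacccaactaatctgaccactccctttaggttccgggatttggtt
H2-DMb2, chr17:34145099-34145248, plus strand: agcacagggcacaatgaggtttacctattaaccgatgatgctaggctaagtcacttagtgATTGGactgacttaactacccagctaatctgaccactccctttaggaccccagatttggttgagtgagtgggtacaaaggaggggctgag
H2-Ob, chr17:34238755-34238904, plus strand: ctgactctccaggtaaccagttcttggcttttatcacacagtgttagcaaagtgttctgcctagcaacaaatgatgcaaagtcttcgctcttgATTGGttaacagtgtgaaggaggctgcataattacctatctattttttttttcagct
H2-Oa, chr17:34092229-34092378, plus strand: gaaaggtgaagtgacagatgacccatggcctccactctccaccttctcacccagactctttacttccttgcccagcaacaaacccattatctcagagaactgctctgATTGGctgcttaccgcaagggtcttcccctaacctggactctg
H2-DMa, chr17:34122682-34122831, plus strand: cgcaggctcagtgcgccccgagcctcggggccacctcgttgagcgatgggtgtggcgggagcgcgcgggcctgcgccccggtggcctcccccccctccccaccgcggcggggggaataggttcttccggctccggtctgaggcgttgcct

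ATTGG or its complement CCAAT, searched on both strands of the 300 bases from 250 before to 50 after the start, was found in 6 of these 7 windows, and in 37.4% of all 32851 windows of that length. With windows for 7 of 10 genes, including 2 of the 4 leading ones, nothing is read from that difference. Counted back from the start site, the first marked base lay at positions from -90 (H2-DMb2) to -43 (H2-Oa) in the 5 genes with 1 match, and H2-Eb1 held 2 matches on opposite strands. No match was found in the H2-DMa window, which says only that these letters are not in it. A match is a description of the sequence and not a measured binding site.

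**Figure D2:**
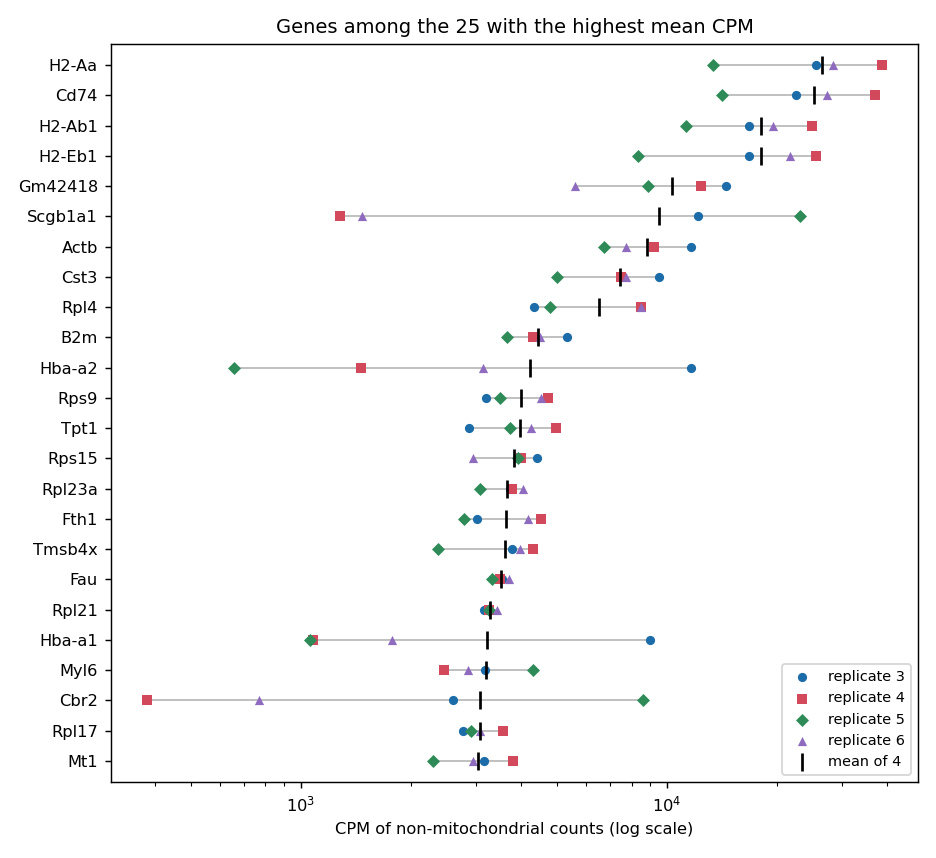
CPM of non-mitochondrial counts (x axis, log scale) of genes among the 25 with the highest mean CPM, 1 symbol per library and a bar at the mean. The 4 class II genes at the top keep replicate 4 highest and replicate 5 lowest, while Scgb1a1 runs from 1281 to 23142 CPM.

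The fifth place belonged to Gm42418, a noncoding gene model on chromosome 17 that overlaps the annotated ribosomal RNA sequence Rn18s-rs5 and the transcript AY036118, and the part of ribosomal RNA in its counts was not tested. It had 14496, 12411, 8850 and 5609 CPM. Malat1, a nuclear long noncoding RNA named here after its values were seen, had 2308, 851, 2959 and 1651 CPM. All genes annotated as noncoding together held 2.64% ± 0.475 of the counts.

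By function, 34 classes of genes were summed, and they held 46.5% of the non-mitochondrial counts on average (42.0% to 50.4%). The 5 largest held 28.4%, and protein-coding genes outside the classes held 50.7%. Cytosolic ribosomal protein genes were the largest class at 10.03%, 12.68%, 9.79% and 11.82% (11.1% ± 1.40, SD, n = 4). MHC class II genes came next, then actin cytoskeleton genes at 3.78% ± 0.443. Airway and alveolar epithelial genes at 2.28% ± 2.45 and lysosomal genes at 2.23% ± 0.157 came after them. The lysosomal class counts in Cst3, a secreted protease inhibitor with a mean of 7436 CPM, and its place depends on that. The difference between ribosomal protein and class II means was smaller than the SD of the class II share, and class II was the larger of the pair in replicate 4 alone (12.9% against 12.7%), so their order is not separated by these libraries. The epithelial and lysosomal shares were likewise not separated, and the epithelial place rested on replicate 5: without it the share was 1.14% and ranked 11 of 34. Translation factors (1.63% ± 0.182), heat shock and chaperone genes (1.33% ± 0.208), nuclear genes of the respiratory chain and ATP synthase (1.31% ± 0.0713) and endothelial and fibroblast genes (1.26% ± 0.719) followed. Eosinophil granule and lineage genes ranked 30 of 34 at 0.120%, 0.130%, 0.0731% and 0.100%.

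**Figure D3:**
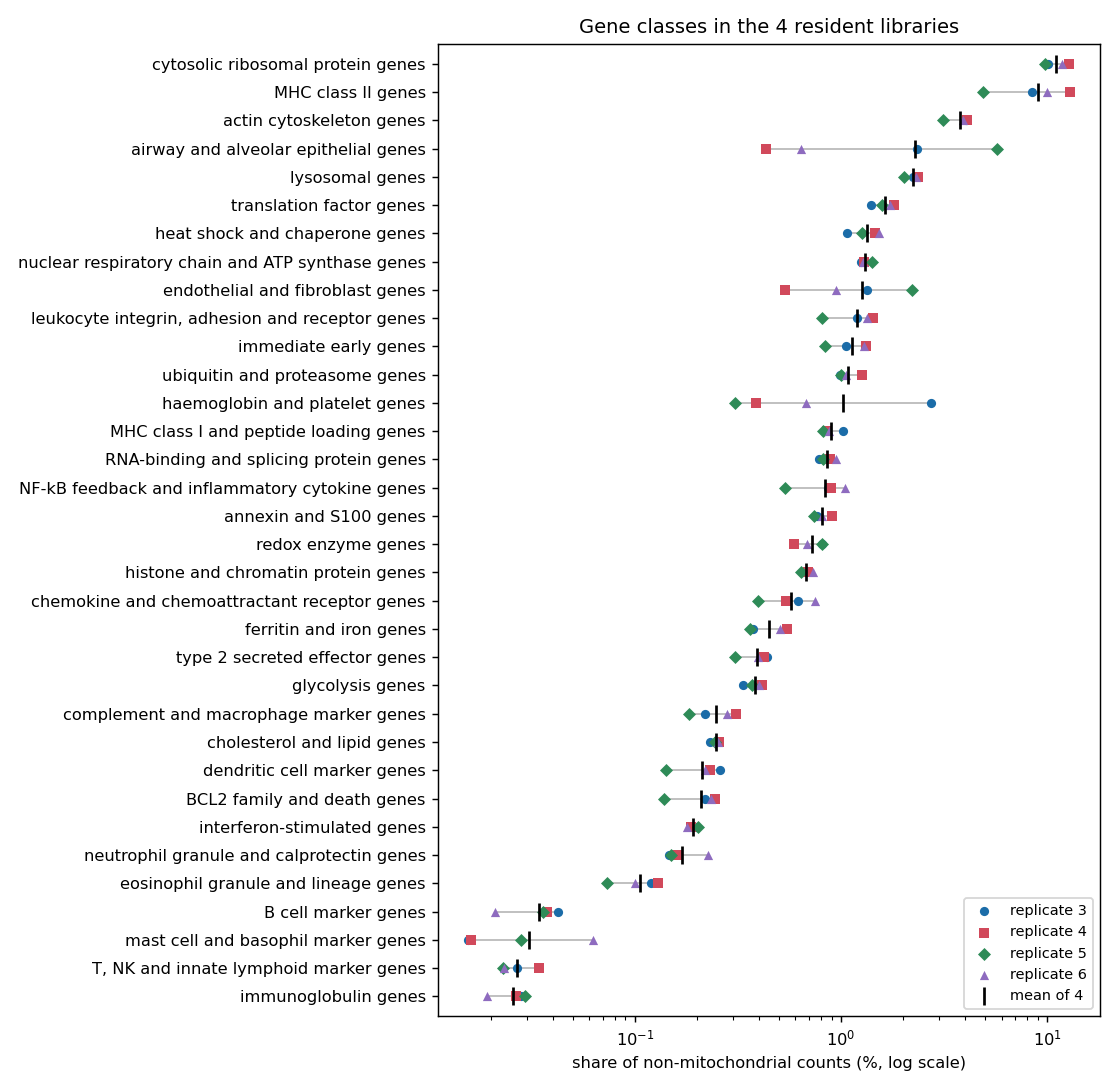
Share of non-mitochondrial counts (x axis, percent, log scale) of 34 gene classes in the 4 libraries labelled resident, 1 symbol per library and a bar at the mean. Ribosomal protein, lysosomal and respiratory chain genes take a similar share of every library, whereas the epithelial share runs from 0.431% to 5.72% and the haemoglobin and platelet share from 0.306% to 2.74%.

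CEL-Seq counts 1 end per transcript, so CPM were not divided by gene length; since priming and counting may still depend on length, the per-length scale is given as well. On counts divided by exon length, Scgb1a1, a short gene, was first with 4.56% of the total, followed by Cd74 (3.55%), H2-Eb1 (2.19%), H2-Ab1 (1.66%) and H2-Aa (1.64%). Ribosomal protein genes then made up 17.3%, class II genes 9.28% and epithelial genes 6.57%. The 3 leading classes by this scale were thus ribosomal protein, class II and epithelial genes.

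Among ribosomal protein genes, Rpl4 of the large subunit was the most abundant. It had 4326, 8498, 4798 and 8472 CPM, with replicates 4 and 6 high and 3 and 5 low. Of the small subunit, Rps9 averaged 3989 ± 746 CPM and Rps15 3822 ± 623 CPM. Replicate 4 was the highest library for 53 of the 77 ribosomal protein genes of at least 50 mean CPM, against 22.5% of all genes. Of the translation factor class, Tpt1, a growth-related protein also known as translationally controlled tumour protein, had 2880, 4967, 3719 and 4254 CPM, and Eef2, which moves the ribosome along the message, had 2266, 2945, 2983 and 2854 CPM.

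Of the actin cytoskeleton genes, Actb, cytoplasmic beta-actin, had 11641, 9220, 6720 and 7717 CPM, highest in replicate 3. Tmsb4x, which binds actin monomers, had 3764, 4317, 2363 and 3964 CPM, and Myl6, a myosin light chain, had 3187, 2456, 4295 and 2863 CPM. Tmsb4x was lowest and Myl6 highest in replicate 5. Actg1, gamma-actin, averaged 2944 ± 883 CPM. Of 53 actin genes of at least 50 mean CPM, 28 were lowest in replicate 5, against 29.8% of all genes.

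Lysosomal and peptide-processing genes were led by Cst3, a secreted cysteine protease inhibitor abundant in dendritic cells, at 9487, 7503, 5014 and 7740 CPM. Lyz2, the lysozyme of myeloid cells that the lung's alveolar cells also make, had 1325, 1885, 3360 and 1979 CPM, and was the only one of the 4 named lysosomal genes with its highest value in replicate 5. Ctss, the protease that trims the invariant chain in antigen-presenting cells, had 1575, 2216, 950 and 2053 CPM. Laptm5, a lysosomal membrane protein of leukocytes, had 1031, 1766, 809 and 1281 CPM. Ctss and Laptm5 ran in the order of replicates 4, 6, 3 and 5, an order found in 3 of the 43 lysosomal genes of at least 50 mean CPM (6.98%, beside 6.17% of all genes).

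MHC class I genes summed to a more even share of the libraries than class II genes. B2m, the shared light chain, had 5333, 4292, 3652 and 4485 CPM. H2-D1 had 2156, 2037, 1790 and 1920 CPM and H2-K1 846, 879, 1008 and 971 CPM, although reads of near-identical H2 genes may be split between them. Tapbp, which bridges class I to the peptide transporter, had 578, 434, 650 and 262 CPM. The class as a whole held 0.891% ± 0.0878 (SD, n = 4), an SD over mean of 0.0985, beside 0.372 for class II. Gene by gene the contrast was smaller, with a median SD over mean of 0.227 in class I and 0.383 in class II.

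Among smaller classes, Fth1, the ferritin heavy chain that stores iron, had 3033, 4517, 2787 and 4161 CPM. Nfkbia, the inhibitor that NF-kB itself induces, had 3024, 2903, 1608 and 3165 CPM, and Il1b, the cytokine interleukin-1 beta, had 1083, 1005, 785 and 1698 CPM. Both were lowest in replicate 5, as were 11 of the 19 genes of that class, against 29.8% of all genes. Of the chemokines, Ccl4, which draws monocytes and T cells, had 1235, 679, 429 and 1543 CPM, and Ccl6 had 733, 921, 687 and 1182 CPM. Immediate early genes, which rise soon after a cell is activated, averaged 1.13% of the counts, led by the transcription factor genes Junb (1241 ± 358 CPM) and Atf3 (1157 ± 386 CPM). The heat-inducible chaperone genes Hspa1b and Hspa1a, near-identical copies that may share reads, had 2189 ± 871 and 1555 ± 714 CPM, with replicates 4 and 6 the high pair for both.

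Proteins tied to type 2 inflammation and to the leukocyte surface were at moderate levels. Chil3, a secreted chitinase-like lectin with close paralogs, had 1981, 1763, 1535 and 1469 CPM. Mgl2, a lectin of macrophages and dendritic cells, averaged 865 ± 327 CPM, and the CCR4 ligands Ccl22 and Ccl17 averaged 458 ± 237 and 380 ± 139 CPM. The dendritic and B cell activation marker Cd83 had 1198, 826, 513 and 854 CPM, and Itgax, the CD11c integrin chain, had 485, 889, 278 and 522 CPM. Cd52, Cd53 and Itgb2, pan-leukocyte surface genes, averaged 1109, 1074 and 1041 CPM. Csf1r, the receptor for macrophage growth factors, had 161, 361, 111 and 239 CPM. C1qb, a complement chain made by macrophages, had 371, 545, 172 and 661 CPM. Replicate 5 was lowest for 26 of the 31 leukocyte integrin, adhesion and receptor genes and for 10 of the 14 complement and macrophage genes, against 29.8% of all genes.

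Outside the classes, the most abundant protein-coding gene was Mt1, a metallothionein that binds zinc and copper, at 3173, 3796, 2289 and 2949 CPM. Those after it were named once their values were seen. Ly6e, a GPI-anchored surface protein, averaged 2485 ± 728 CPM and Cdkn1a, the cell cycle inhibitor p21, 2398 ± 534 CPM. Srgn, the proteoglycan of secretory granules, averaged 2206 ± 736 CPM. Spi1, the myeloid transcription factor PU.1, had 990, 1126, 563 and 1051 CPM, again lowest in replicate 5.

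Spread between the libraries was measured as the coefficient of variation (CV, the SD over the mean of the 4 CPM values) in the 3422 genes of at least 50 mean CPM, which held 84.5% of the counts. The median CV was 0.377, with quartiles of 0.254 and 0.534. Counting error alone would give a median CV of 0.0515, and 27 genes came within 1.5 times their own counting value. Genes with a CV under 0.2 are called constant and numbered 525 (15.3%), and genes with a CV of 1 or more are called variable and numbered 105 (3.07%). The cut-offs divide a continuum: Bzw1 had a CV of 0.1998 just inside the constant set and Rin2 0.2003 just outside, and Il12b had 1.002 just inside the variable set and Nudt16 0.9983 just outside. With 4 libraries the 95% interval of an SD runs from 0.566 to 3.73 times its estimate for normal values, so the class of a single gene is uncertain. By that interval a CV somewhat under 0.2 can come from a gene with the spread of the median gene (0.377). Part of the 525 can thus come from sampling 4 libraries, and they are not shown to be a steady set. Constant genes were more common at high levels, with 57 of the 120 genes of at least 1000 mean CPM, and held 20.4% of the counts. Variable genes held 3.74%.

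**Figure D4:**
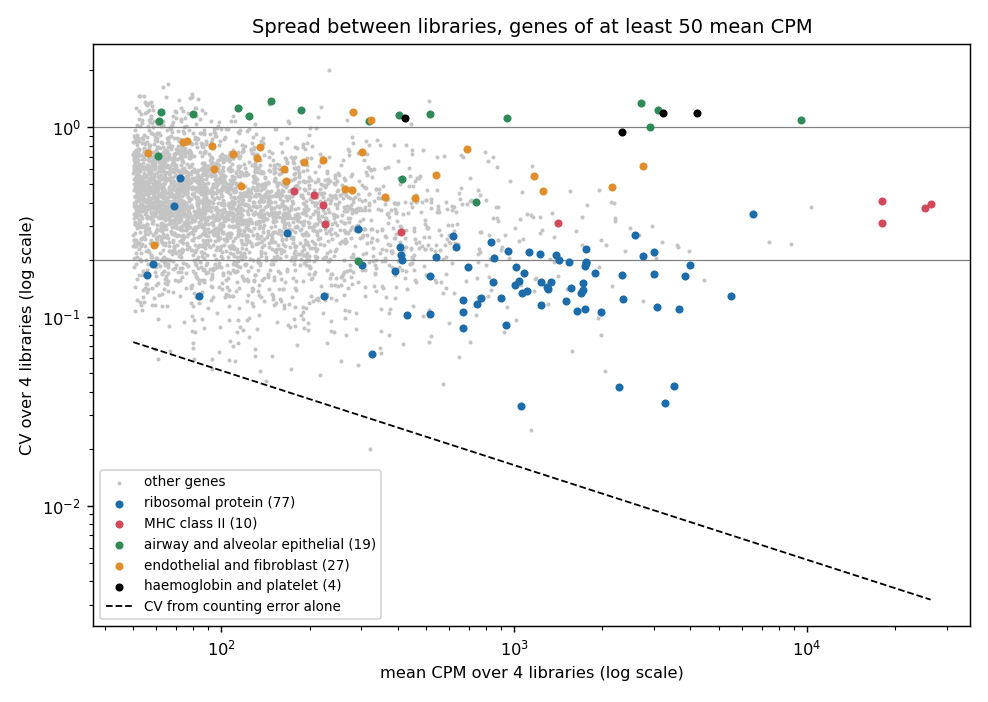
CV over the 4 libraries (y axis, log scale) against mean CPM (x axis, log scale) for the 3422 genes of at least 50 mean CPM; coloured points are 5 classes, grey lines mark CVs of 0.2 and 1, and the dashed line is the CV from counting error alone. Ribosomal protein genes lie mostly under 0.2, class II genes between 0.279 and 0.461, and epithelial genes mostly above 1.

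Constant genes were most frequent among ribosomal protein genes, which had 57 constant members of 77 (74.0%, beside 15.3% of all genes) and no variable one, with a median CV of 0.163. That background was not matched for level, and constant genes were more common at high levels. Rps3a1, a further ribosomal protein gene that the class pattern missed, had a CV of 0.2016, and with it the count was 57 of 78 (73.1%). Other classes with a share above the background included MHC class I (5 of 10), annexin and S100 genes (6 of 16), translation factors (12 of 39), RNA-binding and splicing genes (14 of 49), actin genes (15 of 53), heat shock genes (10 of 37) and the respiratory chain (17 of 63). Lysosomal genes, with 7 of 43, were near the background. Class II genes had no constant and no variable member among 10, with a median CV of 0.383 beside 0.377 over all genes.

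The 12 protein-coding genes of at least 100 mean CPM with the lowest CV had values from 0.02 to 0.0582. These values depend on the scaling: the same 12 genes had CVs of 0.0454 to 0.117 with TMM factors, and of 0.184 to 0.256 with CPM over all counts, mitochondrial genes included, where 8 of the 12 were no longer constant. Tma7, a small protein associated with the translation machinery, had 325, 326, 321 and 312 CPM. Eif1, the factor that guards start codon choice, had 1119, 1156, 1172 and 1113 CPM. Rpl21 had 3158, 3268, 3269 and 3434 CPM, and Rps18 and Fau, which encodes ribosomal protein S30 joined to a ubiquitin-like part, had CVs of 0.0336 and 0.0431. Outside the ribosome, Ptma, the acidic nuclear protein prothymosin alpha, had 2039, 2014, 1914 and 2170 CPM. Tecr, an enzyme of very long chain fatty acid synthesis, had 565, 561, 605 and 547 CPM, Srrm2, a splicing factor, 228, 202, 219 and 218 CPM, and Dbi, an acyl-CoA-binding protein, 290, 273, 309 and 304 CPM. Slamf7, an adhesion receptor of leukocytes, had 183, 161, 174 and 175 CPM, and Ggnbp2 had 107, 110, 108 and 121 CPM. In these genes the highest library was at most 1.14 times the lowest (Slamf7).

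**Figure D5:**
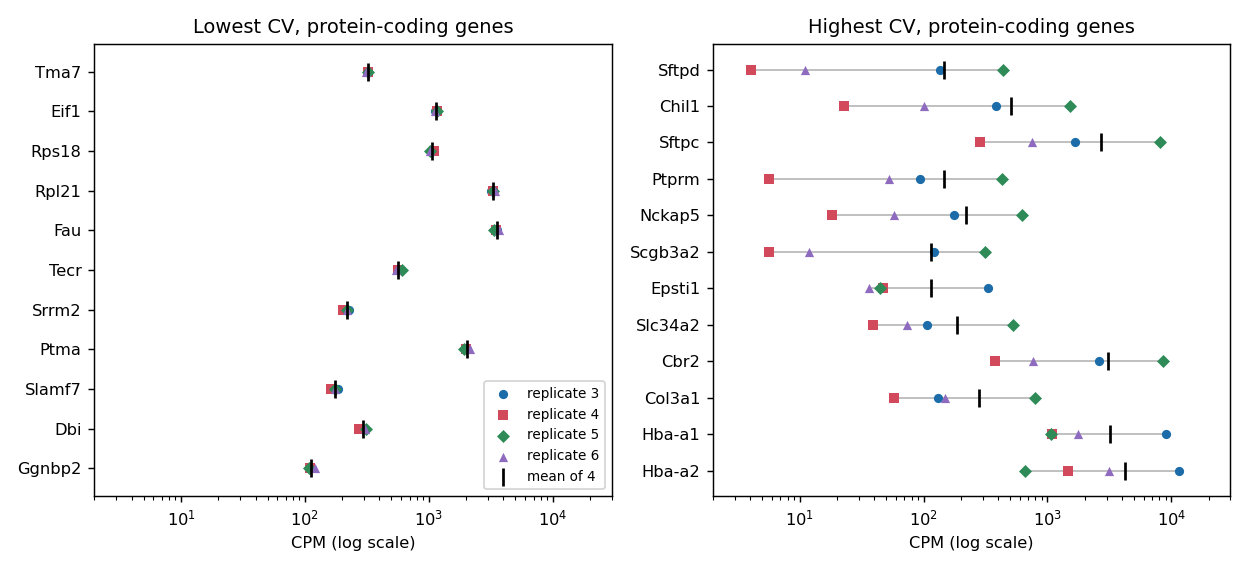
CPM (x axis, log scale) in the 4 libraries of protein-coding genes from the 12 with the lowest CV (left) and of the 12 with the highest (right), among those of at least 100 mean CPM. On the left the symbols overlie each other; on the right replicate 5 is highest for 9 of the 12 genes and replicate 3 for the other 3.

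Among genes with a CV of 1 or more, 73 of 105 (69.5%) had their highest value in replicate 5, against 28.3% of all genes, and 63 (60.0%) their lowest in replicate 4, against 28.5%. Another 24 were highest in replicate 3, against 25.9%, and 3 and 5 in replicates 4 and 6, against 22.5% and 23.3%. A gene with such a CV can reach 50 mean CPM through its highest library alone, and the part of that filter in these counts was not tested. Most of the 105, 79 genes (75.2%), were protein-coding genes outside the classes, to which 2676 of the 3422 genes belong. Airway and alveolar epithelial genes contributed 15 of their 19 members of at least 50 mean CPM, beside 3.07% of all genes. Of these 15, 5 remained in the variable set (at least 50 mean CPM and a CV of 1 or more) without replicate 5, 8 without replicate 4, 10 without replicate 6 and 14 without replicate 3. Scgb1a1, the secretoglobin of airway club cells, had 12121, 1281, 23142 and 1472 CPM. Cbr2, a carbonyl reductase of club cells, had 2603, 381, 8601 and 767 CPM. Sftpc, a surfactant protein of alveolar type II cells, had 1666, 283, 8120 and 751 CPM, and Ager, a receptor abundant on alveolar type I cells, had 2075, 789, 7228 and 1533 CPM. Sftpd, a surfactant lectin, went from 4.02 CPM in replicate 4 to 439 CPM in replicate 5, and Scgb3a2, a club cell secretoglobin, from 5.63 to 316 CPM. Of the 19 genes 17 were highest in replicate 5, and 12 ran in the order of replicates 5, 3, 6 and 4, which 8.15% of all genes did.

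Endothelial and fibroblast genes moved in the same order at lower CVs. All 27 of at least 50 mean CPM were highest in replicate 5 (28.3% of all genes), 25 were lowest in replicate 4 (28.5% of all genes), and 19 ran in the order 5, 3, 6 and 4 (8.15% of all genes). Inmt, a methyltransferase of lung stroma, had 3638, 958, 4683 and 1698 CPM, and Sparc, a matrix protein, had 2191, 995, 3513 and 1909 CPM. Col3a1, a fibrillar collagen, had 131, 57.5, 787 and 148 CPM, and Pecam1, an endothelial adhesion protein, had 297, 136, 449 and 239 CPM. The class II genes were lowest in the library where these genes were highest.

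The 5 genes that stood highest above the other libraries were taken for each library. In replicate 3 they were Epsti1, Kansl1 and the haemoglobin genes Hba-a1, Hbb-bt and Hbb-bs of red cells. Of the haemoglobin class, Hba-a2 had 11635, 1462, 656 and 3144 CPM, Hba-a1 8985, 1082, 1059 and 1771 CPM, and Hbb-bs 5624, 983, 1218 and 1492 CPM, with reads of the near-identical pairs possibly shared. Without replicate 3 the mean of Hba-a2 was 1754 CPM in place of 4224, with a CV of 0.724 in place of 1.20. For Hba-a1 the mean was 1304 CPM in place of 3224 and for Hbb-bs 1231 CPM in place of 2329. The haemoglobin and platelet class then held 0.456% of the counts in place of 1.03%, and the erythroid markers summed to 4482 CPM in place of 10214. The CV of Epsti1, a gene induced by interferon, was 0.128 in place of 1.26, and that of Kansl1 0.0281 in place of 0.893. Both genes, like Hba-a1 and Hbb-bs, were taken for standing highest in replicate 3. Lower values without that library thus follow from the choice, and nothing is read from them. Epsti1 had a mean of 42.7 CPM without replicate 3 in place of 116, under the minimum of 50 mean CPM set for the spread. In replicate 4 the leading genes were Dcstamp, a membrane protein needed for fusion of osteoclasts and macrophages, at 136, 388, 66.9 and 134 CPM, and Crlf3, Arf6, Eif4e and Zmiz1. In replicate 5 they were Igfbp6, Col3a1, Slc34a2, Sftpc and Ptprm, of which Slc34a2, the phosphate transporter of alveolar type II cells, had 106, 38.8, 532 and 73.6 CPM. In replicate 6 they were Aff1, Fam172a, Retnla, B4galt5 and Spen, of which Retnla, a secreted protein of type 2 inflammation, had 33.2, 110, 91.6 and 226 CPM.

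Replicates 4 and 6 were the most alike pair. Across the 3422 genes the Pearson correlation of log2 CPM was 0.82 for that pair and 0.61 to 0.71 for the other 5 pairs, as a description across genes of libraries that share their assay and differ in depth. Between replicates 4 and 6, 669 genes (19.5%) differed by 2-fold or more, and between replicates 4 and 5, 1167 (34.1%). Leaving out replicate 5 raised the constant genes to 846 and lowered the variable genes to 68, of which 32 were among the 105; a CV from 3 libraries is not on the same footing as one from 4. Without replicate 3 the counts were 785 and 115. In every set of 3 libraries and in all 4, 349 genes were constant and 2 were variable.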

How the data were processed

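The authors deposited raw counts for each library, whole numbers by Ensembl gene identifier whose totals differ between libraries. Tools listed in the submitters' processing notes, without settings, are HTSeq 0.6.1, TopHat2 2.1.0, Bowtie2 2.2.6, cutadapt 1.10, Trim Galore, FastQC 0.11.5 and DESeq2 1.28.0. Build, annotation, strand setting and any collapsing of molecular identifiers were not given in the sources used here. Amplification copies, where counted, add to the spread, and floors and counting CVs cover counting error only. The tables hold 54446 genes, of which 54409 matched GENCODE M21 (GRCm38), the source of symbols, biotypes and exon lengths, and 37 did not.

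After the 37 genes whose symbol begins with mt- were dropped, CPM were taken over the remaining counts of each library (Python 3.11.15, pandas 2.3.3). Each gene entered the first of 34 classes that listed it, and cell types were read from 12 marker lists. The spread was the CV of the 4 CPM values in genes of at least 50 mean CPM, with under 0.2 called constant and 1 or more variable; the counting CV is the root of the inverse mean count per library. Nothing was contrasted, so no p-value is given. The scripts were tested on simulated data. Members, classes and lists were chosen with earlier results of these data known. Named genes are the 25 with the highest mean CPM; the 12 with the lowest and 12 with the highest CV, and for each library the 5 with the highest ratio to the next library, among protein-coding genes of at least 100 mean CPM; up to 4 members per class; and the markers. Predicted gene models, pseudogenes and antigen receptor segments were left out of all but the first set. Alternatives were TMM factors (edgeR 4.0.16), RLE size factors (DESeq2 1.42.0), other totals, filters and measures of spread, division by exon length, thinning and leaving out each library. Some genes of the rule are not reported here. The 4 subset libraries were not used.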

Additional observations from a re-analysis of the deposited data

Results flagged for a closer look

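Of 112 values with 4 libraries each, 11 had 1 library whose gap to the nearest of the others was beyond Dixon's 95% critical value as a part of their whole range; chance gives about 1 in 20. In replicate 3 these were the haemoglobin and platelet share (2.74% of counts), Hba-a1 (8985 CPM), Hbb-bs (5624 CPM), the erythroid marker sum (27408 CPM), Epsti1 (334 CPM), Kansl1 (299 CPM) and Xist (930 CPM). The 4 haemoglobin values overlap in content and are not separate observations. In replicate 5 they were Slc34a2 (532 CPM), Col3a1 (787 CPM) and Igfbp6 (298 CPM), and in replicate 6 Aff1 (252 CPM). In each case the library was the highest. Most of these genes were named for a high CV or for being highest in 1 library, so a distant library was part of how they were chosen.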

How the results depend on the processing

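No paired analysis was possible because the libraries form 1 group and nothing is contrasted. Over the alternatives, 89 values of the main results stayed within the spread between libraries (or within 1.5 times for CVs and counts of genes) and 17 moved. Leaving out 1 library cannot move a mean share or level beyond that spread. Those values therefore stayed by construction, which says nothing about their stability. Per exon length the top 10 genes held 20.4%, the top 100 50.1%, 96.5 genes on average held 50% of the total, and the ribosomal protein, actin, epithelial and lysosomal shares were 17.3%, 3.25%, 6.57% and 3.01%. With CPM over all counts 255 genes were constant and 66 variable. A minimum of 10 mean CPM gave 1114 variable genes, and one of 200 gave 210 constant and 19 variable. The tagwise biological coefficient of variation of edgeR gave 0 constant and 20 variable genes, and a highest over lowest CPM of at least 10 gave 196 variable. The cause was not tested. Without 1 library each, constant genes ranged from 643 to 846 and variable genes from 68 to 133, with 846 and 68 both reached without replicate 5; every CV there rests on 3 libraries. The median CV then ranged from 0.332 to 0.394, the top 10 share from 12.4% to 14.8%, the class II share from 7.75% to 10.4% and the epithelial share from 1.14% to 2.90%. For single genes and the other classes, 565 values stayed and 85 moved, with the same limit for levels and shares without 1 library. Taking the epithelial, stromal and haemoglobin genes out of the total, chosen after seeing the data, gave 558 constant and 104 variable genes.

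Comparing promoter features between constant and variable genes was void, since 77.1% of the variable genes had a window. The median counting CV was 0.0515, beside a median CV of 0.377 over the 4 libraries. Whether depth, amplification copies or the number of libraries limits the precision more was not tested.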

Other observations

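Nuclear genes of the respiratory chain and ATP synthase held 1.24%, 1.29%, 1.41% and 1.281% of the counts, led by Cox8a, a subunit of cytochrome c oxidase, at 964, 1052, 918 and 1137 CPM. Glycolysis genes held 0.381% ± 0.0352 (SD, n = 4), with Pkm, the pyruvate kinase of most tissues, at 905 ± 210 CPM and Aldoa, an aldolase, at 741 ± 75.4 CPM. Cholesterol and lipid genes held 0.246% ± 0.0103, and Alox5ap, which presents arachidonic acid to the enzyme that starts leukotriene synthesis, had 522, 684, 277 and 688 CPM. Interferon-stimulated genes held 0.191% ± 0.0112, led by Ifitm3, a membrane protein that restricts virus entry, at 536 ± 119 CPM.

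Gpx3, a secreted glutathione peroxidase, had 2051, 449, 1386 and 713 CPM, while Gpx1, the cytosolic enzyme, had 1196, 1667, 1240 and 1557 CPM: replicates 3 and 5 were high for Gpx3 and low for Gpx1. Cd79a, a chain of the B cell receptor, had 97.8, 160, 93.5 and 47.6 CPM. Cpa3, a carboxypeptidase of mast cells and basophils, had 2.81, 14.5, 2.57 and 139 CPM, highest in replicate 6, as was Hdc, which makes histamine, at 82.8, 58.9, 205 and 367 CPM. Casp8, an initiator of apoptosis, had 58.9, 347, 140 and 238 CPM.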
